A study of Mus musculus with 18 samples.

Results

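The genes described here encode the digestive enzymes of the lysosome, their activators and carriers, the proteins of its membrane, the proton pump that acidifies it, and the transcription factor TFEB. They were chosen by name: every gene of the count table whose identifier carries 1 of 42 listed symbols in the GENCODE M21 annotation was taken, and all 42 symbols were found among the 54838 genes of the table. They comprise 20 hydrolases and activators, 6 membrane proteins, 15 genes of the V-ATPase and Tfeb. The low-count filter left 14181 genes for testing and 41 of the 42 genes described here. Atp6v1c1, the C1 subunit of the pump, had 0 counts in all 18 libraries, so the deposited table gives no measurement of it.

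The study measured RNA of mouse MDSC, the suppressor cells of the myeloid lineage, which restrain T cells, and RNA of bone marrow. All samples came from wild-type C57BL/6 mice, and the labels name no transgene. Bone marrow was cultured for 5 days to give MDSC, CD11b-high cells were sorted into a Ly6G-high, Ly6C-intermediate population (LY6G) and a Ly6G-negative, Ly6C-high population (LY6C), and the sorted cells were plated and collected the following day. Fresh marrow (BM) was flushed from the femurs of 3 mice and cleared of red cells by lysis, so it was neither sorted nor cultured. Sorted cells were incubated with cycloheximide, which holds ribosomes on mRNA, and lysates of all samples contained it. A sucrose gradient separated polysomal RNA, the mRNA loaded with several ribosomes, from which a library was made beside one of total RNA. The 6 groups (LY6C, LY6G and BM, each total and polysomal) hold 3 libraries each, numbered 2, 3 and 6 in the sorted groups and 1, 2 and 3 in marrow. The submitters call the MDSC replicates independent biological ones, while the labels do not say whether a marrow library is 1 mouse or a pool, and they give no age, sex or differentiation factor. Sorting and culture go with the LY6C and LY6G groups and not with marrow, so their parts in any difference from marrow cannot be told apart.

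Lysosomes are acidic compartments in which proteases, glycosidases and lipases break down material taken up by phagocytosis, endocytosis or autophagy. The V-ATPase drives protons inward: its V1 sector in the cytosol hydrolyses ATP and turns a rotor that moves protons through the V0 sector in the membrane. TFEB and its relatives bind the CLEAR element, whose core is TCACGTGA, upstream of many genes of both kinds, and macrophages are known for a high content of lysosomal enzymes.

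The promoters that hold this core are printed because they are the one feature, outside expression, that the hydrolase and pump genes could be compared on. RefSeq promoter windows (GRCm38.p6, from 250 bases before to 50 bases after the start site) matched 33 of the 42 genes. The letters TCACGTGA, which read the same on both strands, occurred in 7 of the 33 (21.2%), against 1.12% of the 27025 genes in the RefSeq table and 0.974% of its 32851 promoters. The shorter E-box CACGTG, which lies inside the longer motif, occurred in 12 (36.4%), against 8.09% of genes and 7.15% of promoters. Of 90 further lysosome genes, 73 had a promoter, of which 6 (8.22%) held TCACGTGA and 17 (23.3%) held CACGTG. The 7 among the 33 belonged to 3 of 17 hydrolases and activators (Ctsa, Ctsd, Gla), 1 of 5 membrane proteins (the channel Mcoln1) and 3 of 10 pump genes (Atp6v0d1, Atp6v0e, Atp6v1a). A match of letters is a description and was not tied to binding in these data. Each stretch runs 5′ to 3′ along the gene's own strand, with TCACGTGA in capitals.
Ctsa: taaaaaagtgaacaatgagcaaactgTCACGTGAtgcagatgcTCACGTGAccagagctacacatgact
Ctsd: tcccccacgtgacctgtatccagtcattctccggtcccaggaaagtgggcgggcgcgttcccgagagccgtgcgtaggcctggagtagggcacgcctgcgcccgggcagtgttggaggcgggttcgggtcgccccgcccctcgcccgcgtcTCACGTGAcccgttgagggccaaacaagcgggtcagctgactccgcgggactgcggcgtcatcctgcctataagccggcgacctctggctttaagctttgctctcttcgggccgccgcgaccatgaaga
Gla: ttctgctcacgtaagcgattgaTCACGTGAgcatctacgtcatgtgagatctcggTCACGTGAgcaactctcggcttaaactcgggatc
Mcoln1: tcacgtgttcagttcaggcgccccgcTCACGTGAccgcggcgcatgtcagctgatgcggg
Atp6v0d1: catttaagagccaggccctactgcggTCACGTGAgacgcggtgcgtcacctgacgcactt
Atp6v0e: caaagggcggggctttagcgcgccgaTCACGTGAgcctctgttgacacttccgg
Atp6v1a: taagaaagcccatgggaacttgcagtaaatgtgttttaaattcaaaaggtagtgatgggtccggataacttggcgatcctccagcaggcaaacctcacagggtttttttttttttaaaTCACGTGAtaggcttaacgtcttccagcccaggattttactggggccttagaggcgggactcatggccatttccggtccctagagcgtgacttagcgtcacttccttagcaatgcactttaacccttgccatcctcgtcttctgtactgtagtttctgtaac

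Positions count from the start site, with negative numbers upstream. In Ctsa (chr2:164833734-164833802 on the plus strand) the motif occurred at positions -13 and 4, and in Gla (chrX:134601167-134601255 on the minus strand) at -228 and -195. The Ctsd stretch (chr7:142387798-142388077 on the minus strand) and the Atp6v1a stretch (chr16:44139230-44139509 on the minus strand) are 280 bases each, with the motif at position -99 and position -132. Mcoln1 held it at position -46 (chr8:3500447-3500506 on the plus strand), Atp6v0d1 at position -4 (chr8:105566035-105566094 on the minus strand) and Atp6v0e at position 2 (chr17:26676372-26676425 on the plus strand).

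Libraries totalled 8559897 to 26225431 counts, but the share on protein-coding genes was 0.232 to 0.291% in marrow total RNA and 1.82 to 3.71% in marrow polysomal RNA, against 37.3 to 94.6% in the sorted libraries. Levels are given in CPM, counts relative to the library total after scaling by the trimmed mean of M-values (TMM). By that scale 1 CPM corresponded to 0.472 to 0.611 counts in a marrow total library, 1.73 to 3.51 in a marrow polysomal library and 18 to 110 in a sorted one. The median tested gene of the 41 had 11 counts over the 3 marrow total libraries and 103 over the 3 marrow polysomal ones, so single marrow values rest on few reads, and total RNA of marrow is the least precise group. Itgam, which encodes the CD11b of the sort, was higher in sorted cells than in marrow, by 2.55 ± 0.67 (LY6C) and 2.85 ± 0.67 (LY6G) log2 units in total RNA (edgeR adjusted p = 0.00747 and 0.00297). The summed level of 13 monocyte and macrophage markers was 135 to 261 CPM in marrow, with Fcgr1 at 0 in marrow total RNA, and 776 to 2580 CPM in sorted libraries. Erythroid markers summed to 440.3 to 1126 CPM in marrow and 21.1 to 89.4 CPM in sorted libraries, and stromal and endothelial markers to 2003 to 6832 CPM and 8.15 to 52.9 CPM. Neutrophil markers, at 645 to 2433 CPM in marrow and 489 to 3948 CPM in sorted libraries, overlapped. In such bulk samples fewer cells of a type and less RNA per cell cannot be told apart, and the part of cell composition in the differences from marrow was not tested. Ly6g, the gene of the antigen that separates the sorted populations, spanned 1.84 to 4.16 CPM in LY6C and 1.62 to 8.73 CPM in LY6G total RNA, and 1.85 to 4.27 and 1.43 to 11.7 CPM in polysomal RNA. Its level therefore did not separate the libraries labelled LY6C from those labelled LY6G.

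Psap, the precursor of the saposins that activate sphingolipid hydrolases, had the highest level per kilobase of exon among the 42 genes in all 6 groups. Its mean was 91.7 CPM per kb in marrow total RNA, 201 in marrow polysomal RNA, 708 and 626 in LY6C and LY6G total RNA, and 1096 and 876 in their polysomal RNA. It made up 38.2 to 47.5% of the summed CPM of the 42 genes, as means of the groups. Ctss followed in sorted cells with 112 CPM per kb in LY6C and 104 in LY6G total RNA, though in LY6G total RNA Ctsd, at 108 CPM per kb, was as high. In marrow polysomal RNA the V1 subunit Atp6v1g1 stood at 21.3 CPM per kb, above Ctss at 15.3. In LY6C and LY6G polysomal RNA Atp6v1g1 stood at 30.1 and 22.5. In total RNA it stood at 15.8 in marrow, 18.1 in LY6C and 17.7 in LY6G cells. The 5 lowest levels above 0 in LY6C total RNA were those of Mcoln1, Atp6v0d2, Atp6v1h, Tfeb and Glb1, at 0.995, 1.45, 1.66, 1.83 and 1.91 CPM per kb. In LY6G total RNA the same genes stood at 1.05, 2.5, 1.90, 1.77 and 1.82, again the 5 lowest. These levels use the length of all annotated exons of a gene. By the length of the principal transcript Atp6v1h stood at 7.88 and 9.01 CPM per kb, at place 29 and 28 of 42, while Glb1 (2.40 and 2.28) and Atp6v0d2 (1.55 and 2.67) remained the 2 lowest above 0. Gene positions are those of GENCODE M21 on GRCm38.

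Summed over the 42 genes, the level was 610.0 ± 119 CPM (mean ± SD, n = 3) in marrow total RNA, 4429 ± 1339 in LY6C total RNA and 4492 ± 183 in LY6G total RNA. In polysomal RNA it was 1159 ± 51.3 CPM in marrow, 6644 ± 3932 in LY6C and 5806 ± 1109 in LY6G cells. The ratio of summed enzyme to summed pump levels was also read in each library, and its difference between groups was not tested. Hydrolases without Psap summed to 1.06, 1.77 and 2.36 times the V-ATPase genes in the marrow total libraries and to 1.02, 1.36 and 1.31 times in the marrow polysomal ones. In the sorted libraries numbered 2, 3 and 6 the ratio was 2.85, 2.22 and 4.19 (LY6C total), 2.98, 2.21 and 4.65 (LY6C polysomal), 2.70, 3.00 and 3.99 (LY6G total) and 2.85, 3.05 and 5.03 (LY6G polysomal). It was above the highest marrow value in all sorted libraries except those of LY6C numbered 3, which lay at 2.21 and 2.22.

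Against marrow, most of the 41 genes were higher in sorted cells and none was called lower. A gene was called at an edgeR quasi-likelihood p under 0.05 after Benjamini-Hochberg adjustment over all 14181 genes. In LY6C total RNA 32 of 41 were called higher, against 20.5% of all genes, and 0 lower, against 7.4%. In LY6G total RNA 35 were called higher (21.5% of all genes) and 0 lower (9.39%). In LY6C polysomal RNA 34 were called higher (20.2%) and 0 lower (11.2%). In LY6G polysomal RNA 33 were called higher (22.1%) and 0 lower (15.3%). The LY6C and LY6G comparisons share the marrow libraries, so these counts are not independent of each other. Of the 41 genes, 40 were below the filter's cutoff in at least 1 marrow total library and 11 in at least 1 marrow polysomal library. Those genes needed libraries of other groups to pass the filter, and levels so low in marrow leave little room for a call of lower. On the lower side no gene of the 41 had an unadjusted p under 0.05, and DESeq2 and limma called none. Without the libraries numbered 3, which stood apart in LY6C, the counts were 34, 33, 35 and 31 in the same order, and without those numbered 6 they were 30 each. The median log2 difference of the 41 genes was 2.91 (LY6C total), 3.05 (LY6G total), 2.45 (LY6C polysomal) and 2.21 (LY6G polysomal), beside 1.64, 1.63, 0.52 and 0.45 over all genes tested. With the 5 genes at 0 counts in marrow total RNA placed at their lower bound, the 2 medians in total RNA were 2.57 and 2.69.

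These values depend on how libraries so unlike are scaled and modelled. With TMM, 2913 genes were called higher and 1050 lower in LY6C total RNA. The split was 2103 and 1256 with relative log expression (RLE) scaling, 2341 and 1222 with protein-coding genes alone, 2253 and 1694 with DESeq2, and 2822 and 3087 with limma, and the median of all genes moved from 1.64 to 1.36, 0.94, 0.18 and 0.05. In LY6G total RNA the split was 3043 and 1331 with TMM, 2606 and 1451 with RLE, 2482 and 1547 with coding genes alone, 2698 and 1834 with DESeq2 and 3211 and 3427 with limma. In polysomal RNA protein-coding genes alone moved it from 2861 and 1592 to 2315 and 1950 (LY6C), and from 3137 and 2176 to 2634 and 2525 (LY6G), where RLE gave 3778 and 1862. Here limma kept the TMM factors and changed the model, and what moved its values was not tested. None of the 41 genes was called lower than marrow in any of these analyses.

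Cysteine and aspartic cathepsins, the main lysosomal proteases, were mostly higher in sorted cells. Ctsb (chromosome 14, 63122462 to 63145923) measured 19.1, 19.6 and 20.7 CPM in marrow total RNA and 55.9, 52.0 and 53.1 CPM in marrow polysomal RNA. In LY6C cells Ctsb was at 233, 88.1 and 257 CPM in total and 249, 132 and 604 CPM in polysomal RNA. In LY6G cells Ctsb was at 219, 201 and 243 CPM in total and 247, 242 and 539 CPM in polysomal RNA. Every sorted library was above every marrow library, with the highest values in the polysomal libraries numbered 6. For Ctsb the log2 difference from marrow was 3.28 ± 0.54 for LY6C and 3.48 ± 0.54 for LY6G total RNA (edgeR adjusted p = 0.000149 and 7.17e-05), and 2.61 ± 0.48 and 2.67 ± 0.49 for polysomal RNA (0.000393 and 0.000255).

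The aspartic protease cathepsin D followed the same order. Ctsd (chromosome 7, 142375911 to 142388038) measured 8.47, 13.1 and 16.5 CPM in marrow total RNA and 20.0, 20.8 and 16.9 CPM in marrow polysomal RNA. In LY6C cells Ctsd was at 169, 80.7 and 294 CPM in total and 177, 86.4 and 333 CPM in polysomal RNA. In LY6G cells Ctsd was at 199, 202 and 361 CPM in total and 207, 194 and 409 CPM in polysomal RNA. The 2 sorted libraries lowest for Ctsd were those of LY6C numbered 3, and these too lay above all marrow libraries. For Ctsd the log2 difference from marrow was 3.83 ± 0.58 for LY6C and 4.32 ± 0.59 for LY6G total RNA (edgeR adjusted p = 6.79e-05 and 1.81e-05), and 3.37 ± 0.52 and 3.81 ± 0.53 for polysomal RNA (6.39e-05 and 1.65e-05).

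Cathepsin L, an endopeptidase, had few counts in marrow. Ctsl (chromosome 13, 64359337 to 64370890) measured 6.35, 0 and 0 CPM in marrow total RNA and 2.28, 4.63 and 5.62 CPM in marrow polysomal RNA. In LY6C cells Ctsl was at 82.9, 44.1 and 249 CPM in total and 87.6, 47.0 and 445 CPM in polysomal RNA. In LY6G cells Ctsl was at 118, 102 and 172 CPM in total and 117, 105 and 404 CPM in polysomal RNA. The libraries numbered 6 were the highest in all 4 sorted groups, and all sorted libraries lay above marrow. Ctsl had 3 counts over the marrow total libraries, which gives a ratio of 54.7 (18.7 to 265) for LY6C and 68.4 (23.4 to 332) for LY6G total RNA, with 95% intervals that cover counting error only. For Ctsl in polysomal RNA the log2 differences from marrow were 5.56 ± 1.01 for LY6C and 5.67 ± 1.02 for LY6G cells (edgeR adjusted p = 0.000642 and 0.000445).

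Cathepsin S processes the invariant chain of class II antigen presentation in myeloid cells. Ctss (chromosome 3, 95526786 to 95556403) measured 25.4, 21.3 and 41.3 CPM in marrow total RNA and 19.4, 22.0 and 21.1 CPM in marrow polysomal RNA. In LY6C cells Ctss was at 173, 68.0 and 217 CPM in total and 223, 101 and 701 CPM in polysomal RNA. In LY6G cells Ctss was at 138, 168 and 117 CPM in total and 177, 224 and 307 CPM in polysomal RNA. All sorted libraries exceeded all marrow libraries, and the polysomal library exceeded the total library of the same number in every sorted pair. For Ctss the log2 difference from marrow was 2.39 ± 0.57 for LY6C and 2.28 ± 0.57 for LY6G total RNA (edgeR adjusted p = 0.00402 and 0.0049), and 4.04 ± 0.58 and 3.50 ± 0.57 for polysomal RNA (3.42e-05 and 8.99e-05).

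Cathepsin Z, a carboxypeptidase, showed the same separation. Ctsz (chromosome 2, 174427493 to 174439039) measured 4.23, 3.27 and 14.5 CPM in marrow total RNA and 15.4, 11.6 and 21.8 CPM in marrow polysomal RNA. In LY6C cells Ctsz was at 130.5, 91.2 and 126 CPM in total and 159.6, 121 and 369 CPM in polysomal RNA. In LY6G cells Ctsz was at 117, 129 and 119.5 CPM in total and 148, 162 and 241 CPM in polysomal RNA. The sorted values lay far above marrow and were higher in polysomal than in total RNA for every pair. For Ctsz the log2 difference from marrow was 4.02 ± 0.53 for LY6C and 4.09 ± 0.53 for LY6G total RNA (edgeR adjusted p = 1.70e-05 and 1.12e-05), and 3.72 ± 0.45 and 3.49 ± 0.45 for polysomal RNA (4.97e-06 and 7.00e-06).

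Ctsc, the dipeptidyl peptidase that activates granule serine proteases, was among the 4 hydrolases with the largest differences in each comparison. It was at 0, 4.91 and 2.07 CPM in marrow total and 7.70, 8.67 and 9.14 CPM in marrow polysomal RNA, and at 166 CPM or more in every sorted library. Its log2 differences were 6.43 ± 0.60 and 6.78 ± 0.60 in LY6C and LY6G total RNA (edgeR adjusted p = 2.63e-07 and 1.09e-07) and 5.22 ± 0.47 and 4.96 ± 0.46 in polysomal RNA (1.54e-07 and 1.79e-07). Ctsa, the carboxypeptidase that protects sialidase and beta-galactosidase, and Tpp1, a tripeptidyl peptidase, were called higher in all 4 comparisons. Ctsh, an aminopeptidase, was called only in LY6G total RNA, at 1.87 ± 0.66 (edgeR adjusted p = 0.0384), and lost that call in 11 of 17 alternative analyses.

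Legumain, the asparaginyl endopeptidase that trims cathepsins, did not pass the test against marrow. Lgmn (chromosome 12, 102394084 to 102439813) measured 12.7, 21.3 and 22.7 CPM in marrow total RNA and 9.98, 19.7 and 11.9 CPM in marrow polysomal RNA. In LY6C cells Lgmn was at 13.8, 4.21 and 21.4 CPM in total and 17.7, 5.99 and 65.7 CPM in polysomal RNA. In LY6G cells Lgmn was at 14.9, 15.3 and 12.8 CPM in total and 17.1, 18.4 and 29.1 CPM in polysomal RNA. The marrow values overlapped those of sorted cells. For Lgmn the log2 difference from marrow was -0.53 ± 0.73 for LY6C and -0.41 ± 0.73 for LY6G total RNA (edgeR adjusted p = 0.625 and 0.672), and 1.13 ± 0.65 and 0.66 ± 0.65 for polysomal RNA (0.204 and 0.431).

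Enzymes that act on sugars and lipids were mostly higher too. Hexa (the alpha subunit of beta-hexosaminidase), Gusb (beta-glucuronidase) and Neu1 (a sialidase) were called higher in all 4 comparisons. Lipa, the acid lipase that frees cholesterol and fatty acids, had 0 counts in marrow total RNA and 2.0, 2.31 and 0.703 CPM in marrow polysomal RNA, against 89.4, 23.2 and 44.5 CPM in LY6C and 82.2, 69 and 55.9 CPM in LY6G total RNA. Set against 3 counts over the marrow total libraries, Lipa was at least 27.4-fold higher in LY6C and 36.1-fold higher in LY6G total RNA. For Lipa in polysomal RNA the log2 differences from marrow were 5.30 ± 0.59 for LY6C and 5.52 ± 0.60 for LY6G cells (edgeR adjusted p = 3.79e-06 and 1.84e-06). Glb1, beta-galactosidase, also had 0 counts in marrow total RNA and was at least 3.00-fold (LY6C) and 2.83-fold (LY6G) higher.

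Gla, alpha-galactosidase A, and Asah1, acid ceramidase, were less uniform. Gla measured 0, 14.7 and 8.26 CPM in marrow total RNA and 0, 0 and 0.703 CPM in marrow polysomal RNA. Against the 2 counts of marrow polysomal RNA its ratio was 52.3 (14.5 to 432) in LY6C and 60.2 (16.7 to 497) in LY6G cells (95% counting intervals), and it was called in both. In total RNA its marrow and sorted values overlapped, and the differences of 0.62 ± 0.66 and 0.97 ± 0.65 were not called (edgeR adjusted p = 0.525 and 0.281). Asah1 was called in LY6G total RNA and in both polysomal comparisons and missed the threshold in LY6C total RNA (edgeR adjusted p = 0.0652).

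The precursor proteins and carriers rose with the enzymes. Psap (chromosome 10, 60277627 to 60302597) measured 197, 228 and 331 CPM in marrow total RNA and 525, 594 and 534 CPM in marrow polysomal RNA. In LY6C cells Psap was at 1995, 1251 and 2578 CPM in total and 2445, 1509.7 and 5068 CPM in polysomal RNA. In LY6G cells Psap was at 1688, 1877 and 1587 CPM in total and 2029.6, 2398 and 2782 CPM in polysomal RNA. No sorted library reached down to the marrow values. For Psap the log2 difference from marrow was 2.95 ± 0.43 for LY6C and 2.77 ± 0.42 for LY6G total RNA (edgeR adjusted p = 4.03e-05 and 5.87e-05), and 2.45 ± 0.41 and 2.12 ± 0.41 for polysomal RNA (0.000161 and 0.000442).

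Progranulin (Grn), which is cleaved to granulins in the lysosome, gave the same picture at a lower level. Grn (chromosome 11, 102430315 to 102437048) measured 14.8, 16.4 and 24.8 CPM in marrow total RNA and 36.5, 42.8 and 39.7 CPM in marrow polysomal RNA. In LY6C cells Grn was at 182, 166 and 243 CPM in total and 228, 199.6 and 507 CPM in polysomal RNA. In LY6G cells Grn was at 157, 175 and 177 CPM in total and 197, 229.7 and 361 CPM in polysomal RNA. Its highest values were those of the polysomal libraries numbered 6. For Grn the log2 difference from marrow was 3.40 ± 0.41 for LY6C and 3.19 ± 0.41 for LY6G total RNA (edgeR adjusted p = 5.72e-06 and 8.65e-06), and 2.98 ± 0.37 and 2.73 ± 0.37 for polysomal RNA (6.74e-06 and 1.19e-05).

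Npc2, the soluble carrier that hands cholesterol to the membrane protein Npc1, was higher as well. Npc2 (chromosome 12, 84754562 to 84773152) measured 27.5, 22.9 and 18.6 CPM in marrow total RNA and 42.2, 21.4 and 29.2 CPM in marrow polysomal RNA. In LY6C cells Npc2 was at 85.5, 63.5 and 233 CPM in total and 99.3, 63.9 and 485 CPM in polysomal RNA. In LY6G cells Npc2 was at 95.5, 134 and 212 CPM in total and 108, 127 and 282 CPM in polysomal RNA. The LY6C libraries numbered 3 were the lowest sorted libraries. For Npc2 the log2 difference from marrow was 2.47 ± 0.73 for LY6C and 2.68 ± 0.73 for LY6G total RNA (edgeR adjusted p = 0.0168 and 0.00966), and 2.80 ± 0.68 and 2.47 ± 0.67 for polysomal RNA (0.00451 and 0.00785).

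Of the 6 membrane proteins 5 were called higher in every comparison, namely Lamp1, Lamp2, Cd63, Npc1 and Scarb2. Lamp1 (chromosome 8, 13159161 to 13175338) measured 10.6, 22.9 and 10.3 CPM in marrow total RNA and 16.3, 37.0 and 24.6 CPM in marrow polysomal RNA. In LY6C cells Lamp1 was at 128, 77.4 and 130.2 CPM in total and 114, 84.5 and 183 CPM in polysomal RNA. In LY6G cells Lamp1 was at 135, 136 and 169.8 CPM in total and 139, 134 and 177 CPM in polysomal RNA. Lamp1, a heavily glycosylated protein of the limiting membrane, lay above marrow in every sorted library. For Lamp1 the log2 difference from marrow was 2.91 ± 0.43 for LY6C and 3.30 ± 0.43 for LY6G total RNA (edgeR adjusted p = 5.06e-05 and 1.14e-05), and 2.31 ± 0.38 and 2.54 ± 0.38 for polysomal RNA (0.000122 and 3.76e-05).

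Cd63, a tetraspanin of late endosomes and granules, was called in all 4 comparisons. Cd63 (chromosome 10, 128900989 to 128912822) measured 6.35, 16.4 and 12.4 CPM in marrow total RNA and 13.4, 20.8 and 15.1 CPM in marrow polysomal RNA. In LY6C cells Cd63 was at 37.3, 53.4 and 27.5 CPM in total and 39.3, 53.3 and 59.0 CPM in polysomal RNA. In LY6G cells Cd63 was at 38.1, 28.6 and 28.6 CPM in total and 42.4, 33.8 and 51.3 CPM in polysomal RNA. All its sorted libraries lay above all its marrow libraries. For Cd63 the log2 difference from marrow was 1.72 ± 0.39 for LY6C and 1.41 ± 0.39 for LY6G total RNA (edgeR adjusted p = 0.00268 and 0.00981), and 1.63 ± 0.34 and 1.38 ± 0.33 for polysomal RNA (0.00101 and 0.00299).

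The cholesterol transporter Npc1 had 2 counts in marrow total RNA. Npc1 measured 0, 1.64 and 2.07 CPM in marrow total RNA and 4.85, 8.09 and 6.68 CPM in marrow polysomal RNA. In LY6C cells Npc1 was at 35.6, 14.4 and 32.5 CPM in total and 40.4, 20.6 and 38.4 CPM in polysomal RNA. In LY6G cells Npc1 was at 32.3, 26.9 and 31.1 CPM in total and 36.1, 32.3 and 54.8 CPM in polysomal RNA. All its sorted values were above marrow. The ratios in total RNA were 25.5 (7.07 to 211) for LY6C and 23.8 (6.59 to 197) for LY6G cells (95% counting intervals). For Npc1 in polysomal RNA the log2 differences from marrow were 2.37 ± 0.41 for LY6C and 2.68 ± 0.41 for LY6G cells (edgeR adjusted p = 0.000206 and 5.21e-05).

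Lamp2, the partner of Lamp1 that also serves chaperone-mediated autophagy, differed by 2.78 ± 0.51 and 3.26 ± 0.51 in LY6C and LY6G total RNA (edgeR adjusted p = 0.000414 and 7.58e-05) and by 2.94 ± 0.45 and 3.12 ± 0.45 in polysomal RNA (5.64e-05 and 2.46e-05). Scarb2, a receptor that carries an enzyme to the lysosome, differed by 1.66 ± 0.52 and 1.51 ± 0.52 in total RNA (edgeR adjusted p = 0.0211 and 0.0316), calls that were lost in 6 and 9 of 17 alternatives. In polysomal RNA the Scarb2 differences were 2.66 ± 0.46 and 2.28 ± 0.46 (0.000215 and 0.000665 by edgeR).

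Mcoln1, the lysosomal calcium channel, was the membrane gene that did not pass. Mcoln1 (chromosome 8, 3500457 to 3515232) measured 2.12, 11.5 and 0 CPM in marrow total RNA and 1.43, 3.47 and 3.87 CPM in marrow polysomal RNA. In LY6C cells Mcoln1 was at 8.36, 4.71 and 9.48 CPM in total and 4.74, 4.52 and 5.26 CPM in polysomal RNA. In LY6G cells Mcoln1 was at 9.63, 5.30 and 8.91 CPM in total and 6.84, 4.70 and 5.01 CPM in polysomal RNA. In total RNA its sorted and marrow libraries overlapped, and in polysomal RNA the sorted libraries lay above marrow without passing the test. For Mcoln1 the log2 difference from marrow was 0.61 ± 0.66 for LY6C and 0.68 ± 0.66 for LY6G total RNA (edgeR adjusted p = 0.54 and 0.463), and 0.78 ± 0.54 and 0.97 ± 0.54 for polysomal RNA (0.29 and 0.163). Tfeb, the regulator, was not called either. Tfeb (chromosome 17, 47737030 to 47792419) measured 6.35, 9.82 and 4.13 CPM in marrow total RNA and 21.7, 7.52 and 12.3 CPM in marrow polysomal RNA. In LY6C cells Tfeb was at 12.8, 9.15 and 9.14 CPM in total and 12.1, 12.3 and 14.3 CPM in polysomal RNA. In LY6G cells Tfeb was at 11.2, 10.0 and 8.98 CPM in total and 11.4, 9.39 and 12.2 CPM in polysomal RNA. Its marrow and sorted ranges overlapped in both kinds of RNA. For Tfeb the log2 difference from marrow was 0.58 ± 0.46 for LY6C and 0.53 ± 0.46 for LY6G total RNA (edgeR adjusted p = 0.386 and 0.413), and -0.13 ± 0.34 and -0.36 ± 0.34 for polysomal RNA (0.79 and 0.407).

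Of the 6 genes of V0, the membrane sector of the pump, 5 or 6 were called higher in each comparison. Atp6v0c (chromosome 17, 24163866 to 24169702) measured 2.12, 4.91 and 0 CPM in marrow total RNA and 24.5, 2.31 and 5.97 CPM in marrow polysomal RNA. In LY6C cells Atp6v0c was at 33.0, 30.9 and 33.3 CPM in total and 27.9, 40.1 and 137 CPM in polysomal RNA. In LY6G cells Atp6v0c was at 40.6, 30.8 and 32.2 CPM in total and 32.1, 29.3 and 37.8 CPM in polysomal RNA. Atp6v0c, which forms the proton-carrying ring, had its highest value in the LY6C polysomal library numbered 6. For Atp6v0c the log2 difference from marrow was 3.68 ± 0.95 for LY6C and 3.78 ± 0.94 for LY6G total RNA (edgeR adjusted p = 0.00708 and 0.00514), and 2.57 ± 0.63 and 1.53 ± 0.61 for polysomal RNA (0.00455 and 0.0575). Its difference in LY6G polysomal RNA was thus not called, and without the sorted libraries numbered 6 that in LY6C polysomal RNA was not either (1.39, adjusted p = 0.0519).

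Atp6v0d1 (chromosome 8, 105524465 to 105566047) measured 4.23, 1.64 and 4.13 CPM in marrow total RNA and 5.71, 3.47 and 0.703 CPM in marrow polysomal RNA. In LY6C cells Atp6v0d1 was at 34.9, 22.9 and 21 CPM in total and 35.3, 28.1 and 32.7 CPM in polysomal RNA. In LY6G cells Atp6v0d1 was at 34.5, 33.1 and 24.9 CPM in total and 38.6, 35.1 and 34.4 CPM in polysomal RNA. Atp6v0d1, the subunit that couples rotor and ring in most tissues, lay above marrow in all 12 sorted libraries. For Atp6v0d1 the log2 difference from marrow was 3.03 ± 0.58 for LY6C and 3.26 ± 0.58 for LY6G total RNA (edgeR adjusted p = 0.000648 and 0.00027), and 3.25 ± 0.44 and 3.42 ± 0.45 for polysomal RNA (1.83e-05 and 8.38e-06).

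Its relative Atp6v0d2, known from osteoclasts and macrophages, had 0 counts in all 6 marrow libraries. In LY6C cells Atp6v0d2 was at 7.01, 1.28 and 3.49 CPM in total and 6.73, 1.78 and 2.67 CPM in polysomal RNA. In LY6G cells Atp6v0d2 was at 8.60, 6.83 and 4.91 CPM in total and 9.19, 6.81 and 7.19 CPM in polysomal RNA. The sorted libraries numbered 2 were the highest in each group. Against 3 counts over a marrow group, Atp6v0d2 was at least 10.0-fold (LY6C) and 20.8-fold (LY6G) higher in polysomal RNA and at least 2.05-fold and 3.54-fold higher in total RNA, where the LY6C comparison missed the threshold (edgeR adjusted p = 0.0609).

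Atp6v0a1 (chromosome 11, 101009452 to 101063719) measured 19.1, 14.7 and 14.5 CPM in marrow total RNA and 26.8, 34.1 and 35.8 CPM in marrow polysomal RNA. In LY6C cells Atp6v0a1 was at 89.8, 79.0 and 94.8 CPM in total and 93.5, 74.5 and 83.9 CPM in polysomal RNA. In LY6G cells Atp6v0a1 was at 103, 107 and 75.1 CPM in total and 106, 117 and 69.4 CPM in polysomal RNA. Atp6v0a1, the large subunit that forms the path of the protons, was higher in every sorted library than in any marrow library. For Atp6v0a1 the log2 difference from marrow was 2.46 ± 0.32 for LY6C and 2.57 ± 0.32 for LY6G total RNA (edgeR adjusted p = 1.58e-05 and 7.73e-06), and 1.38 ± 0.28 and 1.60 ± 0.28 for polysomal RNA (0.000858 and 0.000189). Atp6v0b, another ring protein, differed by 4.16 ± 0.51 (LY6C) and 4.28 ± 0.51 (LY6G) in total RNA (edgeR adjusted p = 7.02e-06 and 3.73e-06) and by 2.29 ± 0.34 and 2.12 ± 0.34 in polysomal RNA (5.09e-05 and 8.24e-05). Atp6v0e, a small V0 subunit, had 3 counts in marrow total RNA, for ratios of 12.5 (4.29 to 60.9) in LY6C and 12.1 (4.14 to 58.7) in LY6G cells (95% counting intervals), and 2.54 ± 0.50 and 1.83 ± 0.50 log2 units in polysomal RNA (edgeR adjusted p = 0.000709 and 0.0065).

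Of the 7 tested genes of V1, the sector that hydrolyses ATP, 4 or 5 were called higher in each comparison. Atp6v1a (chromosome 16, 44085402 to 44139705) measured 38.1, 11.5 and 12.4 CPM in marrow total RNA and 71.9, 27.2 and 28.1 CPM in marrow polysomal RNA. In LY6C cells Atp6v1a was at 73.6, 59.8 and 64.6 CPM in total and 82.3, 92.2 and 134 CPM in polysomal RNA. In LY6G cells Atp6v1a was at 63.3, 71.5 and 56.7 CPM in total and 73.9, 83.8 and 90.3 CPM in polysomal RNA. Atp6v1a, the catalytic subunit, was called in 3 of the 4 comparisons, and the marrow libraries numbered 1 were the highest of marrow. For Atp6v1a the log2 difference from marrow was 1.70 ± 0.44 for LY6C and 1.65 ± 0.44 for LY6G total RNA (edgeR adjusted p = 0.00708 and 0.00764), and 1.27 ± 0.39 and 0.95 ± 0.39 for polysomal RNA (0.018 and 0.0598).

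Atp6v1b2 (chromosome 8, 69088646 to 69113711) measured 19.1, 13.1 and 24.8 CPM in marrow total RNA and 31.9, 41.6 and 34.4 CPM in marrow polysomal RNA. In LY6C cells Atp6v1b2 was at 136, 89.4 and 109 CPM in total and 148, 101 and 169.8 CPM in polysomal RNA. In LY6G cells Atp6v1b2 was at 131, 133 and 98.0 CPM in total and 146, 154 and 129.8 CPM in polysomal RNA. Atp6v1b2, which shares the nucleotide sites with the A subunit, was higher in all sorted libraries. For Atp6v1b2 the log2 difference from marrow was 2.57 ± 0.34 for LY6C and 2.69 ± 0.34 for LY6G total RNA (edgeR adjusted p = 1.54e-05 and 7.44e-06), and 1.96 ± 0.30 and 2.0 ± 0.30 for polysomal RNA (6.07e-05 and 3.89e-05).

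Atp6v1h, a regulator of the pump that joins its sectors, and Atp6v1f, a part of the rotor, had 0 counts in marrow total RNA. Atp6v1h was at 8.56, 11.0 and 10.2 CPM in marrow polysomal RNA and Atp6v1f at 3.14, 1.16 and 3.16 CPM. Against 3 counts over the marrow total libraries, Atp6v1h was at least 8.44-fold (LY6C) and 9.65-fold (LY6G) higher, and Atp6v1f at least 2.59-fold and 3.27-fold higher. In polysomal RNA the log2 differences of Atp6v1h were 1.33 ± 0.35 and 1.07 ± 0.35 (edgeR adjusted p = 0.00715 and 0.021). Those of Atp6v1f were 1.08 ± 0.57 and 1.5 ± 0.56 (0.158 and 0.0436 by edgeR), so it was not called in LY6C cells.

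Atp6v1e1, a stalk subunit, was called in all 4 comparisons. Atp6v1d, the rotor shaft, and Atp6v1g1, another stalk subunit, were called in none: in polysomal RNA Atp6v1d differed by 0.23 ± 0.31 (LY6C) and -0.19 ± 0.31 (LY6G) and Atp6v1g1 by 0.51 ± 0.33 and 0.09 ± 0.33 (edgeR adjusted p = 0.92, 0.633, 0.257 and 0.842). Where a gene varies less than Poisson counts would, edgeR gives the larger of its own p and a Poisson p, which was so for Atp6v1d in LY6C polysomal RNA, so there the SE and the p do not correspond. Atp6ap1 (chromosome X, 74297097 to 74304721) measured 10.6, 6.55 and 8.26 CPM in marrow total RNA and 20.0, 23.7 and 19.7 CPM in marrow polysomal RNA. In LY6C cells Atp6ap1 was at 50.4, 30.8 and 33.5 CPM in total and 55.7, 41.2 and 70.5 CPM in polysomal RNA. In LY6G cells Atp6ap1 was at 45.6, 41.3 and 39.9 CPM in total and 50.6, 46.7 and 60.1 CPM in polysomal RNA. Atp6ap1, an accessory protein needed to assemble the pump, was higher in every sorted library. For Atp6ap1 the log2 difference from marrow was 2.19 ± 0.37 for LY6C and 2.34 ± 0.37 for LY6G total RNA (edgeR adjusted p = 0.000177 and 7.70e-05), and 1.41 ± 0.29 and 1.32 ± 0.29 for polysomal RNA (0.00106 and 0.00145).

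Some of these calls ended when 1 library was left out, and the edgeR adjusted p without it is given by cell kind and number. In LY6C total RNA the calls of 6 genes did so. For Tpp1 it was 0.0752 without marrow 2 and 0.0583 without marrow 3. For Glb1 it was 0.0534 without marrow 2. For Npc2 it was 0.0691 without marrow 2, 0.0747 without marrow 3 and 0.0954 without LY6C 6. The calls of these 3 and of the next 3 each ended without marrow library 2. For Scarb2 it was 0.0665 without marrow 1, 0.158 without marrow 2 and 0.0698 without LY6C 6. For Atp6v1a it was 0.0648 without marrow 2 and 0.0554 without marrow 3. For Atp6v1f it was 0.0671 without marrow 1, 0.0875 without marrow 2 and 0.0693 without marrow 3.

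In LY6G total RNA the edgeR adjusted p of 10 genes passed 0.05 without a library of marrow total RNA or of LY6G total RNA. For Ctsh it was 0.156 without marrow 1, 0.163 without marrow 2, 0.0725 without LY6G 3 and 0.0547 without LY6G 6. For Tpp1 it was 0.0522 without marrow 2. For Glb1 it was 0.0518 without marrow 2. Marrow library 2 was common to these 3. For Asah1 it was 0.177 without marrow 1, 0.144 without marrow 3, 0.0648 without LY6G 2 and 0.0579 without LY6G 3. For Neu1 it was 0.0745 without marrow 1 and 0.0928 without marrow 2. For Cd63 it was 0.0657 without marrow 1. The calls of the next 3 each ended without marrow library 2. For Scarb2 it was 0.0831 without marrow 1, 0.206 without marrow 2 and 0.0606 without LY6G 6. For Atp6v0d2 it was 0.0744 without marrow 1, 0.0952 without marrow 2 and 0.076 without marrow 3. For Atp6v1a it was 0.0642 without marrow 2 and 0.0546 without marrow 3. Atp6v0d2 had 0 counts in each marrow library, as Atp6v1f had in total RNA. For Atp6v1f it was 0.0562 without marrow 2.

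In LY6C polysomal RNA 2 calls ended so. For Hexa it was 0.0691 without marrow 1 and 0.0602 without marrow 3. For Atp6v1a it was 0.104 without marrow 2, 0.111 without marrow 3 and 0.0576 without LY6C 6. In LY6G polysomal RNA 3 calls ended so. For Neu1 it was 0.0902 without marrow 1. For Atp6v1f it was 0.0919 without marrow 1, 0.145 without marrow 2, 0.0842 without marrow 3, 0.0997 without LY6G 2, 0.051 without LY6G 3 and 0.0688 without LY6G 6. For Atp6v1h it was 0.0802 without marrow 1. The other calls against marrow in the 4 comparisons held without each library in turn.

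By class, 16, 18, 18 and 18 of the 20 hydrolases and activators were called higher in LY6C total, LY6G total, LY6C polysomal and LY6G polysomal RNA. The counts were 5 in each comparison for the 6 membrane proteins, 5, 6, 6 and 5 for the 6 V0 genes, and 5, 5, 4 and 4 for the 7 tested V1 genes. In polysomal RNA the median log2 differences of hydrolases, membrane proteins, V0 and V1 were 2.76, 2.34, 2.56 and 1.27 for LY6C and 2.68, 2.41, 1.98 and 1.07 for LY6G cells. In total RNA they were 3.12, 2.25, 3.53 and 2.57 (LY6C) and 3.12, 2.39, 3.67 and 2.69 (LY6G), and with the genes at 0 in marrow placed at their bounds 2.94, 2.25, 3.21 and 1.70, and 2.91, 2.39, 3.41 and 1.71. V1 was thus the class with the smallest median in both polysomal comparisons and, with bounds, in both total ones. Without bounds its median lay above that of all genes in each comparison. No median of all genes with bounds was computed, so the V1 values with bounds cannot be set against one. The difference between classes was not tested.

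**Figure D1:**
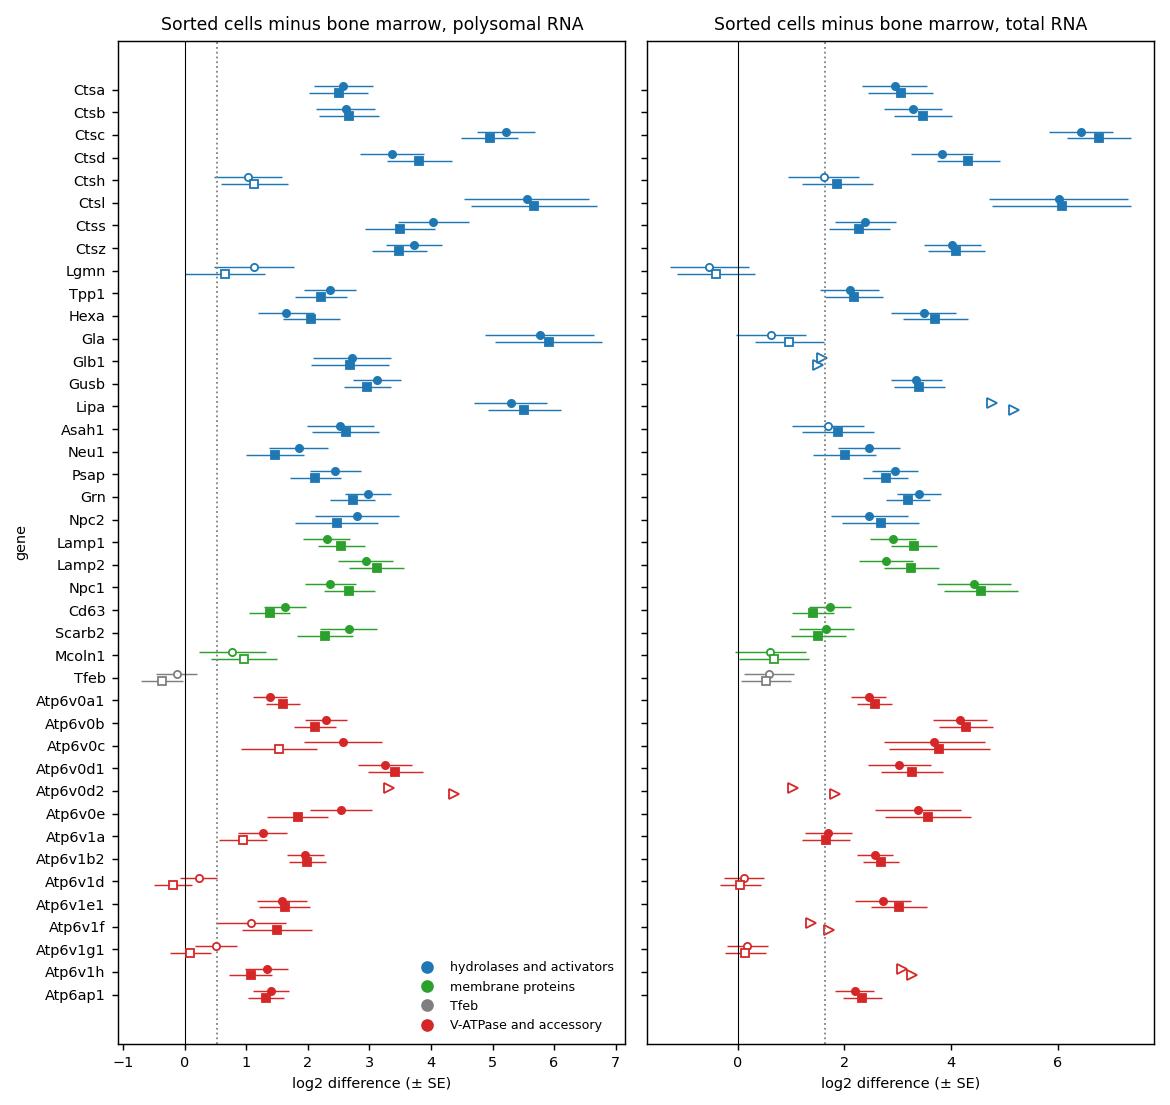
Log2 difference from marrow of each gene by role, in total and in polysomal RNA, for LY6C (circles) and LY6G (squares) cells. Bars are ± 1 SE of the edgeR fit, filled symbols are called, open symbols are not, and triangles are lower bounds where marrow had 0 counts. The dotted line is the median of all genes tested for LY6C against marrow. Symbols lie right of the dotted line for most genes, with Lgmn, Mcoln1, Tfeb, Atp6v1d and Atp6v1g1 open in both kinds of RNA.

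Within marrow, polysomal and total RNA differed for few of the genes. Of the 41, 1 (Atp6v1h) was called higher in polysomal RNA, against 2.6% of all genes, and 1 (Gla) lower, against 0.797%. Atp6v1h had 78 counts over the polysomal libraries and 0 over the total ones, at least 5.04-fold higher against 3 counts. Gla had 2 and 13 counts, a ratio of total to polysomal RNA of 33.5 (7.59 to 306) (95% counting interval), and the groups overlapped at 0. The V0 gene Atp6v0b differed by 2.03 ± 0.56 and the accessory gene Atp6ap1 by 1.33 ± 0.38 (edgeR adjusted p = 0.0513 and 0.0547), both without overlap. The call of Gla ended without the marrow polysomal library 1 (edgeR adjusted p = 0.08) and without the marrow total library 2 (0.165). The membrane genes with the lowest p were Npc1, at 4.85 (1.27 to 41.1) times its total level by counts, and Lamp1 (0.78 ± 0.43, edgeR adjusted p = 0.335). Psap differed by 1.13 ± 0.40 (0.118). Over all genes the median difference was 0.55, and the split of calls moved from 368 higher and 113 lower to 67 and 133 with RLE and to 85 and 422 with DESeq2.

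In the sorted cells polysomal RNA was not separated from total RNA by the test for any gene: 0% of all genes were called in LY6C and 0% in LY6G cells. The numbers of genes with an unadjusted p under 0.05 were 433 and 254 of 14181, of which 4 and 0 were among the 41. DESeq2 called 6 and 4 genes and limma 0 and 100, none of them among the 41. The 4 were Ctss (log2 difference 1.16 ± 0.51), Ctsz (0.90 ± 0.40), Atp6v0e (1.05 ± 0.45) and Atp6v1g1 (0.73 ± 0.32) in LY6C cells, each at an edgeR adjusted p of 1. In LY6G cells Grn (0.63 ± 0.34) and Ctsz (0.59 ± 0.40) had the lowest p of the hydrolases, Cd63 (0.42 ± 0.32) and Npc1 (0.45 ± 0.36) of the membrane proteins, and Atp6ap1 (0.31 ± 0.28) and Atp6v1g1 (0.35 ± 0.32) of the pump genes, all with an adjusted p of 1. The difference was above 0 for 36 of 41 genes in LY6C and 33 of 41 in LY6G cells, with medians of 0.41 and 0.22. Over all genes it was above 0 for 7230 and 7094 of 14181, with medians of 0.0104 and 0.000401. The difference between the 41 genes and all genes was not tested.

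Total and polysomal libraries of the same number varied together, so the 6 sorted pairs were also read one by one, as log2 of (CPM + 0.5). LY6C and LY6G libraries of the same number also deviated together, so the 6 pairs are not independent of each other. Of the 41 genes, 17 were higher in polysomal RNA in all 6 pairs, against 16.8% of all genes, and 1, Mcoln1, was lower in all 6, against 11.6%. In the 4 pairs numbered 2 and 3 alone, 17 were higher in all (23.6% of all genes) and 2, Mcoln1 and Atp6v0b, lower in all (14.9%). The 17 higher in all 6 pairs were 9 hydrolases and activators (Ctsa, Ctsb, Ctss, Ctsz, Lgmn, Glb1, Gusb, Psap, Grn), the membrane proteins Npc1 and Scarb2, and 6 pump genes (Atp6v0d1, Atp6v1a, Atp6v1b2, Atp6v1d, Atp6v1g1, Atp6ap1). For Ctss the differences in pairs 2, 3 and 6 were 0.36, 0.57 and 1.69 in LY6C and 0.35, 0.41 and 1.39 in LY6G cells. For Ctsb they were 0.10, 0.58 and 1.23 in LY6C and 0.17, 0.27 and 1.15 in LY6G cells, and for Mcoln1 -0.76, -0.05 and -0.79 in LY6C and -0.46, -0.16 and -0.77 in LY6G cells. The pairs numbered 6 were the most displaced. The median over the hydrolases was 0.09, 0.29 and 0.95 in the LY6C pairs numbered 2, 3 and 6 and 0.15, 0.12 and 0.52 in the LY6G pairs. Over the pump genes it was 0.09, 0.32 and 1.05, and 0.08, 0.08 and 0.51. Over all genes it lay between -0.03 and 0.06 in all 6 pairs. The difference between the classes was not tested.

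**Figure D2:**
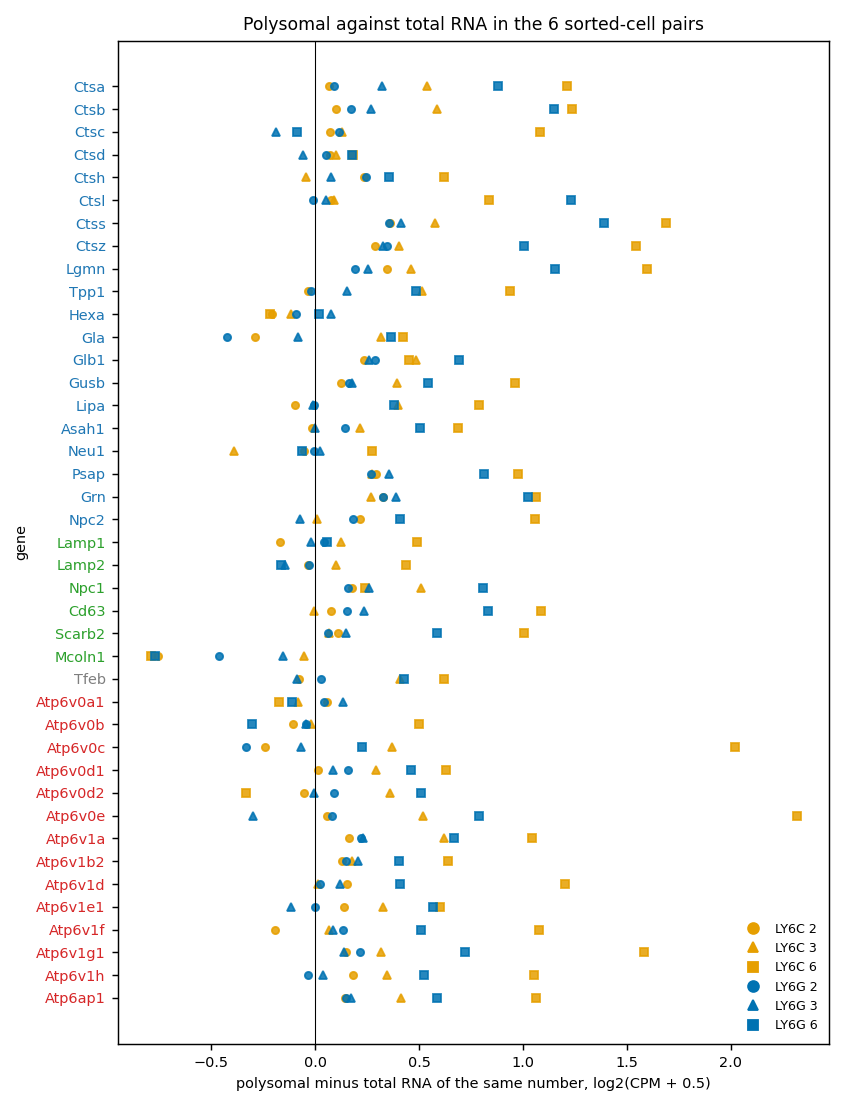
Log2 difference of polysomal from total RNA, log2 of (CPM + 0.5), of each gene by role in the 6 sorted pairs; colour marks the population (LY6C or LY6G) and the symbol the number (2, 3 or 6). Most symbols of the pairs numbered 6 lie right of those numbered 2, and Mcoln1 lies left of 0 in all 6 pairs.

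Between the sorted populations no gene was called in either kind of RNA, and 0% of all genes were called in total RNA and 0% in polysomal RNA. At an unadjusted p under 0.05 there were 565 genes in total and 833 in polysomal RNA, and 0 of the 41 in both. DESeq2 and limma called 0 of the 41 as well. The median difference of LY6G from LY6C over the 41 genes was 0.12 in total and -0.09 in polysomal RNA. In total RNA the lowest p values belonged to Ctsd (0.49 ± 0.46), Neu1 (-0.46 ± 0.43), Lamp2 (0.48 ± 0.40), Lamp1 (0.39 ± 0.35), Atp6v0d2 (0.76 ± 0.55) and Atp6v1e1 (0.30 ± 0.39), all with an edgeR adjusted p of 1. In polysomal RNA they belonged to Ctss (-0.53 ± 0.51), Hexa (0.41 ± 0.43), Scarb2 (-0.39 ± 0.41), Npc1 (0.31 ± 0.36), Atp6v0d2 (1.04 ± 0.55) and Atp6v0c (-1.04 ± 0.58), with adjusted p of 0.842 or more. A p that misses the threshold does not show that the populations were alike: the SE of these differences ran from 0.27 to 0.79 log2 units.

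Levels within the sorted groups were also read by library number. The libraries numbered 6 were the highest of the 3 in all 4 sorted groups for 7 of the 41 genes (Ctsb, Ctsd, Ctsl, Grn, Npc2, Lamp1 and Scarb2), or 17.1%, near the 12.8% of all genes, and for none of the 14 tested pump genes. Those numbered 2 were the highest in all 4 for Lipa, Atp6v0d1, Atp6v0d2 and Atp6v1f (5.13% of all genes), and those numbered 3 for none (10.7%). The LY6C library numbered 3 was low for the hydrolases, with a median log2 difference from the other two of -0.89 in total and -1.11 in polysomal RNA, against -0.25 and -0.62 for the pump genes. The LY6C polysomal library numbered 6 was high, by 1.24 for hydrolases and 0.62 for pump genes. In the same LY6C libraries numbered 3, primary granule genes of neutrophil precursors summed to 334 CPM in total and 435 CPM in polysomal RNA, against 10.2 to 49.5 CPM in the other LY6C libraries. Their neutrophil markers summed to 3195 and 3948 CPM, and their monocyte and macrophage markers to 776 and 1002 CPM, the lowest of the sorted libraries. Their part in the low hydrolase values was not tested. The median coefficient of variation over 3 libraries was 55.2% for hydrolases and 37.5% for pump genes in LY6C polysomal RNA, 20.1 and 9.28% in LY6G polysomal RNA, 38.2 and 20.2% in LY6C total RNA, and 14.1 and 16.7% in LY6G total RNA. Over all genes tested it was 36.0, 20.1, 37.4 and 22.7% in the same order, so the hydrolases were well above it in LY6C polysomal RNA, close to it in LY6G polysomal and LY6C total RNA and below it in LY6G total RNA.

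**Figure D3:**
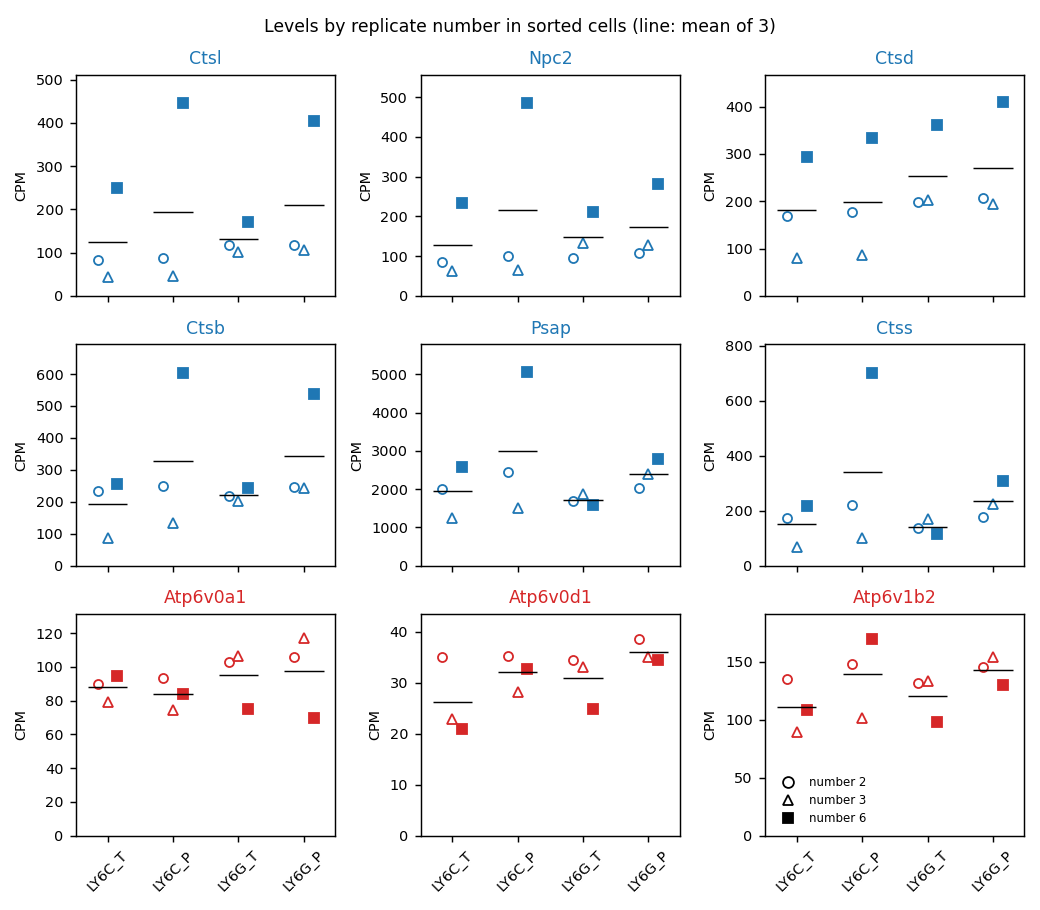
CPM of 9 genes in the sorted libraries by group and number (2, 3 and 6), with the mean of the 3 libraries as a line. The libraries numbered 6 are highest in all 4 groups for Ctsb, Ctsd, Ctsl and Npc2, and those numbered 2 for Atp6v0d1.

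Translational efficiency was compared as the difference of polysomal from total RNA in one cell kind less the same difference in another, in 1 model over all libraries. For LY6C against marrow 0 of the 41 genes were called (0.0846% of all genes higher, 0.254% lower). An unadjusted p under 0.05 was found for 8 of the 41, beside 1962 of all 14181 genes. DESeq2 called 1 and limma 0. For LY6G against marrow 0 were called higher (0.0987%) and 1, Atp6v1h, lower (0.317%). That value rests on the 0 counts of Atp6v1h in marrow total RNA: the fitted difference of -11.68 ± 2.31 (edgeR adjusted p = 0.0325) is no bound. DESeq2 called 2 of the 41 and limma 1. With the replicate block Atp6v1h lost this call (edgeR adjusted p = 0.059) and Gla was called higher instead, at 4.62 (0.0421). The block also called Gla higher in LY6C against marrow, at 4.84 (0.038). Without the block 8 of the 41 had an unadjusted p under 0.05 for LY6G against marrow, beside 2012 of all 14181 genes. Those named by class, beside Atp6v1h, were Gla (4.94 ± 1.22, adjusted p = 0.0758, 2 counts in marrow polysomal RNA), Atp6v0b (-2.16 ± 0.65, 0.142), Ctsc (-1.82 ± 0.79, 0.296), Npc1 (-1.88 ± 0.93, 0.366, 2 counts in marrow total RNA) and Lamp1 (-0.75 ± 0.56, 0.591), with edgeR adjusted p, of which Npc1 and Lamp1 were not among the 8. For LY6C against marrow the corresponding values were 5.14 ± 1.22 (0.0679) for Gla, -1.87 ± 0.66 (0.211) for Atp6v0b, -1.84 ± 0.78 (0.295) for Hexa, -2.06 ± 0.92 (0.322) for Npc1 and 1.00 ± 0.70 (0.571) for Scarb2. Over all genes the medians were -0.64 and -0.65. With RLE scaling the split of calls over all genes went from 12 higher and 36 lower to 19 and 15 (LY6C), and from 14 and 45 to 22 and 17 (LY6G). With DESeq2 it was 154 and 30, and 155 and 45. Between LY6G and LY6C cells 0% of all genes were called, 7 of them and 0 of the 41 had an unadjusted p under 0.05, and DESeq2 and limma called 0 of the 41. The 41 genes ran from -1.13 (Atp6v0c) to 0.28.

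Other genes of the lysosome, outside the 42, are given by their counts in the same comparisons, with values for some of those the naming rule takes. Of 90 further lysosome genes 80 were tested. In LY6C total, LY6G total, LY6C polysomal and LY6G polysomal RNA, 33, 37, 38 and 41 of them were called higher and 3, 5, 7 and 6 lower. Over all genes 20.5, 21.5, 20.2 and 22.1% were called higher and 7.4, 9.39, 11.2 and 15.3% lower, shares that also stand beside the classes below. The median log2 differences of the 80 were 1.68, 1.76, 1.29 and 1.27, beside 1.64, 1.63, 0.52 and 0.45 over all genes, so in total RNA the 2 were close. With genes at 0 in marrow at their bounds the medians of the 80 were 1.52, 1.57, 1.21 and 1.06. Of 30 other hydrolases 10, 10, 15 and 15 were called higher and 1, 1, 2 and 2 lower. Manba, beta-mannosidase, differed by 3.21 ± 0.46 and 3.29 ± 0.46 in LY6C and LY6G polysomal RNA. Idua had 0 counts in marrow total RNA and was at least 3.46-fold higher in LY6C total RNA. The aspartic protease Ctse was lower, by -5.84 ± 0.52 and -6.27 ± 0.52 in total and -6.16 ± 0.51 and -6.41 ± 0.51 in polysomal RNA (edgeR adjusted p = 1.5e-07, 4.93e-08, 5.31e-08 and 2.30e-08). Ctsf was lower in polysomal RNA, by -3.49 ± 0.74 and -3.53 ± 0.71.

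Of 18 other membrane proteins 6, 6, 8 and 9 were called higher and 1, 1, 2 and 1 lower. Cd68, a macrophage lysosome protein, differed by 3.89 ± 1.1, 4.15 ± 1.08, 4.42 ± 0.76 and 4.57 ± 0.76. Cd68 had 2 counts over the marrow total libraries. By counts its ratio was 23.0 (6.38 to 190) for LY6C and 18.3 (5.07 to 151) for LY6G total RNA, with intervals that cover counting error only. Clcn7, the chloride exchanger, differed by 3.15 ± 0.66 in LY6C total RNA. Of 12 genes that sort proteins to the lysosome 7, 7, 5 and 5 were called higher and 0, 1, 1 and 1 lower. M6pr, the cation-dependent mannose 6-phosphate receptor, was higher by 1.67 ± 0.33, 2.08 ± 0.33, 2.15 ± 0.31 and 2.42 ± 0.31. Of the 4 tested among 11 other V-ATPase genes, Atp6ap2 differed by 2.26 ± 0.60, 2.14 ± 0.60, 3.17 ± 0.53 and 2.62 ± 0.52. Tcirg1, the a3 subunit of osteoclasts and macrophages, differed by 2.75 ± 0.61, 2.16 ± 0.60 and 1.77 ± 0.55, and by 0.94 ± 0.54 in LY6G polysomal RNA, where it was not called (edgeR adjusted p = 0.177).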

How the data were processed

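RNA of 18 libraries was measured by sequencing on a NextSeq 500 after ribosomal RNA removal, per the labels' protocols. The deposited table holds raw counts per gene that the authors made; per the submitters' processing notes they used FastQC, STAR 2.5.2a, DESeq and DESeq2 and the build GRCm38 (mm10). The counting program, its annotation and its use of strand are not given in the sources used here. Since 6 of the genes overlap another gene on the same strand and 14 a gene on the other strand, reads shared with those genes could be split or lost. Identifiers were matched to GENCODE M21 (54809 of 54838; the other 29 have no name) and promoters to RefSeq GRCm38.p6.

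Genes were kept by filterByExpr (minimum count 10, 14181 genes), scaled by TMM and fitted over all 6 groups with edgeR 4.0.16 (quasi-likelihood, common dispersion 0.163, R 4.3.3). Calls have a Benjamini-Hochberg adjusted p under 0.05 over all genes, in 12 comparisons. In the main fit the p-values set a difference against the spread between libraries of a group, estimated over all 6 groups without a replicate block. After ±, a level carries the SD and a log2 difference the SE. Depth ran from 8559897 to 26225431 counts, most of them not on coding genes in marrow; exact binomial 95% intervals and floors (3 counts over a group) cover counting error only. Sorted libraries of the same number deviated together from their group means (correlation 0.56 to 0.74 between total and polysomal, 0.27 to 0.59 between LY6G and LY6C). Marrow ones did not (0.00 to 0.03), so only the sorted cells give ground for a replicate block. The block as fitted held marrow as well. Where levels were compared with marrow, marrow and sorted libraries of the same number shared a term. In the other comparisons the marrow numbers had terms of their own.

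Alternatives were RLE factors, DESeq2 1.42.0, limma 3.58.1, other filters, coding genes alone, the compared libraries alone, the block and single libraries left out, and, chosen after seeing the data, the sorted libraries numbered 3 or 6 left out. The genes and lists were chosen with earlier results of these data known. Of the 42, 21 are given in every library whatever their values; others are named where they are among the up to 4 largest called differences of their class without overlap between groups, or, where none is called, the 2 of lowest p. Of the further lysosome genes that this rule takes, a subset picked after their values were seen is given, and Ctsa, Ctsh, Tpp1, Gusb, Asah1 and Atp6v1d, outside the rule, were also named after their values were seen. Marker lists were summed per library. The script was tested on simulated counts.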

Additional observations from a re-analysis of the deposited data

Results flagged for a closer look

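The difference in translational efficiency of Atp6v1h between LY6G cells and marrow, -11.68 log2 units (SE 2.31, edgeR adjusted p = 0.0325), was the only one that passed a test of the difference itself among the 41 genes. Atp6v1h had 78 counts in the marrow polysomal libraries and 0 in the marrow total ones, at least 5.04-fold more against 3 counts, while polysomal and total RNA differed by 0.17 ± 0.32 in LY6G and 0.62 ± 0.32 in LY6C cells. The fitted value follows from a group at 0 and is no bound. The call was lost in 16 of 23 alternative analyses, among them the replicate block (edgeR adjusted p of Atp6v1h 0.059) and those without any 1 library of marrow polysomal, LY6G total or LY6G polysomal RNA or without marrow total library 2 or 3, where the adjusted p of Atp6v1h ran from 0.0549 to 0.0752. For LY6C cells the same difference was -11.23 ± 2.48 (edgeR adjusted p = 0.0579), not called.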

How the results depend on the processing

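Over the 41 genes, 12 comparisons and all alternatives, 8920 single-gene results kept their side of the threshold, 119 lost a call, 52 gained one and none changed direction as a call. The counts of genes higher than marrow stayed within 1.5 times under every alternative. They ran from 27 to 33 (LY6C total), 28 to 34 (LY6G total), 32 to 35 (LY6C polysomal) and 32 to 32 (LY6G polysomal) when 1 library was left out. For polysomal against total marrow RNA, where 2 genes were called, the count was 4 with a filter of 50 counts in 3 libraries, 1 with limma, 0 with only the compared libraries fitted, and 1 to 4 without 1 library. For the efficiency of LY6C against marrow, with 0 called, DESeq2, the stricter filter, no filter and the replicate block each gave 1, and leaving out 1 library gave 0 to 1. For LY6G against marrow, with 1 called, DESeq2 and no filter gave 2, while RLE scaling, the compared libraries alone, and leaving out the sorted libraries numbered 3 or numbered 6 gave 0; leaving out 1 library gave 0 to 2. The comparisons within the sorted cells gave 0 to 0. In the sorted cells the numbers paired the libraries, while the block also fitted the marrow numbers. With the replicate block the counts against marrow were 33, 33, 34 and 34, marrow polysomal against total RNA had 3 and the sorted comparisons 0. The efficiency of LY6G against marrow had 1, a different gene: Atp6v1h lost its call and Gla gained one. Ctsh and Scarb2 (LY6G total) and Atp6v1h (LY6G polysomal) also lost calls, and Asah1 (LY6C total), Atp6v0c and Atp6v1a (LY6G polysomal), Ctsb (marrow polysomal against total) and Gla (efficiency of LY6C) gained one. With RLE in place of TMM the median level of the genes was 10.2 in place of 11.6 CPM in marrow polysomal RNA, 8.95 in place of 7.60 in marrow total RNA and 45.7 in place of 42.7 in LY6G total RNA. The causes of these changes were not tested. Depth limits the marrow values: 11 of the tested genes in polysomal and 40 in total marrow RNA were below the filter's cutoff in at least 1 library.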

Other observations

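Regulators of lysosome genes other than Tfeb, the mTOR and Rag proteins among them, were called higher in 8 (LY6C total), 12 (LY6G total), 8 (LY6C polysomal) and 11 (LY6G polysomal) of 16 genes, and lower in 1, 2, 2 and 2. Over all genes 20.5, 21.5, 20.2 and 22.1% were called higher and 7.4, 9.39, 11.2 and 15.3% lower. Mitf and Tfec encode relatives of TFEB that bind the same element. Mitf had 0 counts in all marrow libraries and was at least 8.05-fold (LY6C) and 12.0-fold (LY6G) higher in total RNA and at least 32.3-fold and 51-fold higher in polysomal RNA. Tfec had 0 counts in marrow total RNA, where it was at least 7.10-fold (LY6C) and 11.1-fold (LY6G) higher, and 3 counts in marrow polysomal RNA. Flcn, a part of the complex that controls the Rag proteins, had 0 counts in marrow total RNA and was at least 8.58-fold and 9.37-fold higher. Rragd, which encodes one of the Rag proteins, was lower, by -4.26 ± 0.73 and -4.01 ± 0.72 log2 units in total and -3.12 ± 0.66 and -2.41 ± 0.63 in polysomal RNA (edgeR adjusted p = 0.00023, 0.000277, 0.0012 and 0.00498).

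Of 8 inhibitors of the cathepsins 4 and 2 were called higher in LY6C and LY6G total RNA, and 8 and 7 in polysomal RNA, with none lower. Over all genes 20.5, 21.5, 20.2 and 22.1% were called higher and 7.4, 9.39, 11.2 and 15.3% lower, in the same order. Of the 8 inhibitors 6 had 0 counts in marrow total RNA and 3 in marrow polysomal RNA, which left those genes no room for a call of lower. Cstb, the cytosolic inhibitor of cathepsins B, L and S, had 2 counts over the marrow total libraries. By counts its ratio was 21.1 (5.82 to 174) for LY6C and 22.8 (6.31 to 188) for LY6G total RNA, with intervals that cover counting error only. The log2 differences of Cstb were 4.20 ± 0.85 (LY6C total), 4.51 ± 0.84 (LY6G total), 4.15 ± 0.56 (LY6C polysomal) and 4.01 ± 0.56 (LY6G polysomal). Cst3, the secreted cystatin, differed by 2.75 ± 0.68, 2.44 ± 0.68 and 2.19 ± 0.56 in the first 3 and by 1.24 ± 0.55 in LY6G polysomal RNA, where it was not called (edgeR adjusted p = 0.0812). Of the stefin family, Stfa2 had 0 counts in both marrow groups and was at least 42.7-fold (LY6C) and 19.6-fold (LY6G) higher in polysomal RNA. The stefin genes are near-identical copies, so their counts could be split among them.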
